A study of Homo sapiens with 6 samples.

Results

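Genes of the complement and coagulation systems were examined in luciferases-expressing HepG2 cells exposed to sedanolide. The 46 members were chosen by symbol, 21 of complement and 25 of coagulation and fibrinolysis, and matched to identifiers among the 61541 genes of the deposited count table. The rule uses symbols and no measured value, though the list was chosen with earlier results of these data known.

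HepG2 is an established human hepatoblastoma line, and the derivative used here carries luciferase reporter genes, so the results describe 1 engineered tumor line and not liver tissue. Sedanolide, a phthalide of celery oil, was given at 100 μM for 24 h to 3 samples, and 3 control samples received none. Whether the controls received the solvent alone is not given in the labels. Nothing in the labels says that the replicates came from separate cultures, so p-values measure the spread between these libraries, which may be technical.

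Hepatocytes make most of the complement and clotting proteins of plasma. Complement is started by the classical, lectin or alternative pathway, each of which leads to cleavage of C3 and C5 and to assembly of the membrane attack complex, while soluble and membrane-bound regulators restrain it on host cells. Clotting runs from tissue factor and factor VII, or from the contact system, through factor X and prothrombin to the conversion of fibrinogen into fibrin, and is limited by serpins, protein C and plasmin.

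Each library held 16420258 to 26714853 expected counts, and the members took 0.571% to 1.10% of them. A count of 0 allows up to 3 counts in a library, or 0.116 to 0.182 CPM (counts scaled to library size), which covers counting error only. Of the 46 members, 41 passed the filter on low counts and were tested among 14102 genes in all. MASP1, KLKB1, PLG and HRG did not pass it, and F9 had 0 counts in all libraries. Normalized CPM are given below as mean ± SD of 3 libraries, and log2 fold changes compare sedanolide with control. Adjusted p-values are from the edgeR quasi-likelihood test with Benjamini-Hochberg adjustment over all genes tested, and a gene was called at an adjusted p of 0.05 and a 1.5-fold change.

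Before the results, a split of the libraries that cuts across the treatment has to be given. On component 1 of a principal component analysis, which held 52.6% of the variance, sedanolide 3 lay with controls 1 and 2 (called side A here), and control 3 lay with sedanolide 1 and 2 (side B). The 13 mitochondrial protein genes took 1.10% to 1.59% of the counts on side A and 2.82% to 3.64% on side B. Since several members differed between the sides, a fit that includes the side is given for the members shown in every library, and differences within the sides for some of them. The sides were read from these same libraries, so p-values with the side as a term may be too small. The 6 hepatocyte markers examined (ALB, AFP, APOA1, TTR, HNF4A and SERPINA1) were all detected, with a summed level of 15565 to 25491 CPM in control and 12184 to 19665 CPM in sedanolide libraries. Of the macrophage markers, 4 of 6 had 0 counts in all libraries (C1QA, C1QB, CD163 and MARCO), and the 6 together reached at most 3.998 CPM. The 5 endothelial markers together reached at most 5.29 CPM, and VWF and KDR had 0 counts in all libraries.

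The members were lower in sedanolide-treated cells on balance. Of the 41 tested, 35 (85.4%) had a fitted log2 fold change below 0, which held for 49.3% of all genes tested. Their median log2 fold change was -0.44, with a range from -1.51 for C8B to 0.39 for CD55, while the median of all genes tested was 0.0057. For 16 members (39%) the 3 sedanolide libraries lay entirely below the 3 control libraries, and 9.65% of all genes tested did so. For 2 members, CD55 and SERPINC1, they lay entirely above, which was true of 8.69% of all genes tested. At an unadjusted p under 0.05, 16 members were lower and 2 higher, against 6.57% and 5.34% of all genes tested. C8B alone was called, as lower, 1 member of 41, while 0.312% of all genes tested were called lower and 0.667% in either direction. Complement and coagulation members had medians of -0.40 over 20 complement genes and of -0.45 over 21 genes of coagulation and fibrinolysis. The 6 hepatocyte markers were lower as well on balance, with 5 fitted below 0, 2 lower without overlap (ALB and TTR), a median log2 fold change of -0.33 and values below control within both sides for all 6. The part of such a wider difference in the members' values was not tested. In these bulk samples fewer cells that express a gene and less RNA per cell cannot be told apart.

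**Figure D1:**
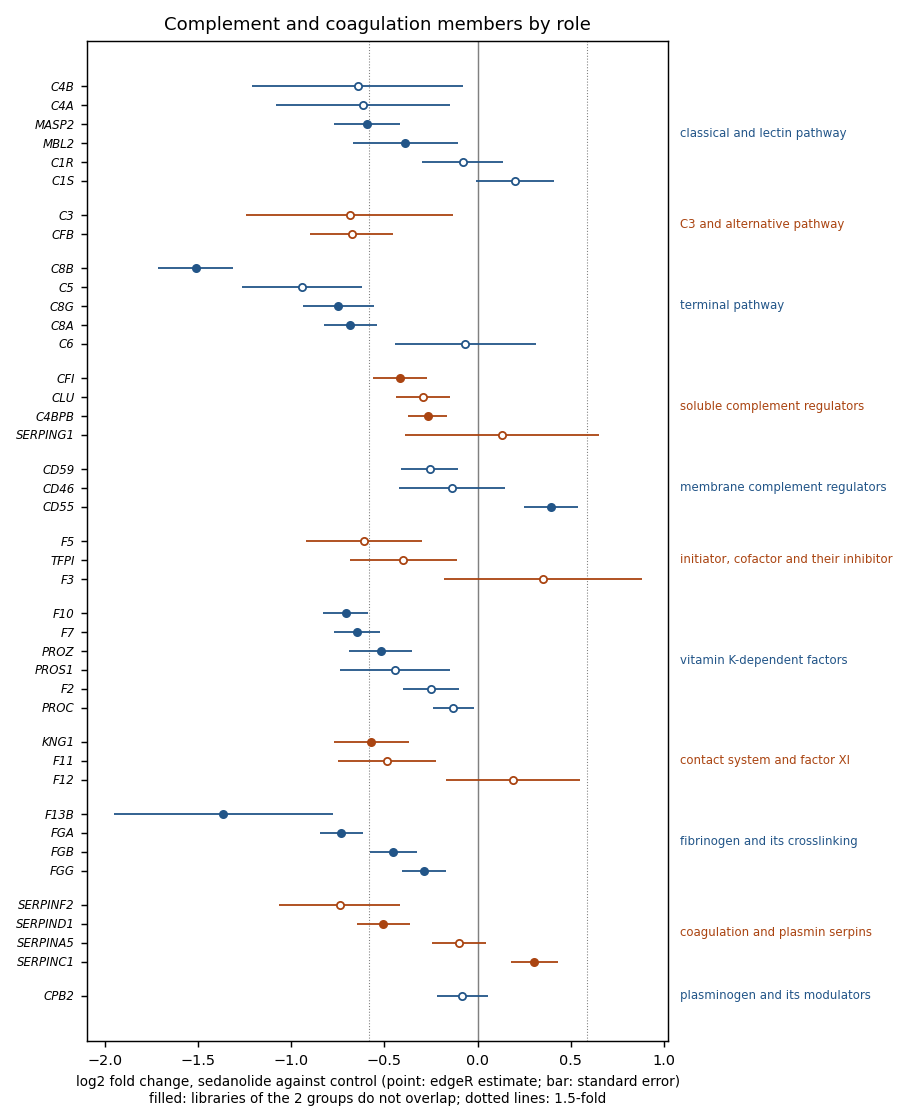
Log2 fold change of each of the 41 tested members (points, edgeR estimate; bars, standard error), grouped by role, with filled points where the libraries of the groups did not overlap. Most points lie left of 0, and C8B is the farthest left at -1.51. All 4 genes of fibrinogen and its crosslinking have filled points below 0, while 9.65% of all genes tested were lower without overlap. Of these 4, F13B had only 1 to 34 counts per library.

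The terminal pathway held the largest change. C8B (ENSG00000021852, chr1:56929207-56974383 in GRCh38, minus strand) encodes the β chain of C8, which binds the C5b-7 complex at the membrane and precedes C9. Its level was 7.57, 8.64 and 6.95 CPM in controls 1 to 3 and 3.44, 2.47 and 2.26 CPM in sedanolide 1 to 3, from 125, 204 and 123 counts against 64, 64 and 57 counts. Every sedanolide library held less than 50% of the lowest control. C8B fell by 1.51 on the log2 scale (SE 0.204, adjusted p = 0.0300), from 7.72 ± 0.854 to 2.72 ± 0.630 CPM. The difference was -1.83 within side A and -1.25 within side B, and with the side as a term it was -1.53 (adjusted p = 0.00401). Without sedanolide 3 the adjusted p was 0.0371, but it was between 0.0689 and 0.231 without any 1 of the other libraries, and 0.425 with the replicate number as a block. 

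The other chains of C8 were lower as well, without passing the test. C8A (ENSG00000157131), which encodes the pore-forming α chain and neighbors C8B on chromosome 1 at chr1:56854768-56918223, had 10.7, 10.8 and 10.1 CPM in controls and 6.99, 5.68 and 7.02 CPM in sedanolide libraries. The log2 fold change of C8A was -0.68 (SE 0.142, adjusted p = 0.120), and its groups did not overlap. With the side as a term, C8A passed both thresholds (-0.65, adjusted p = 0.0301), and it did so in DESeq2 (adjusted p = 0.0101). C8G (ENSG00000176919, chr9:136945185-136946975), whose product is the lipocalin-like γ chain, had 6.85, 4.79 and 5.43 CPM in controls and 3.66, 3.51 and 2.97 CPM in sedanolide libraries, again without overlap (log2 fold change -0.75, SE 0.191, adjusted p = 0.186). The fit with the side gave -0.77 for C8G (adjusted p = 0.0618). The ratio of C8B to C8A within a library was lower in every sedanolide library than in any control, by 0.83 on the log2 scale. This ratio uses the same values by which C8B was called. An exact two-sided permutation test gave p = 0.1, which is the smallest that 3 against 3 libraries allow (0.167 after adjustment over the 5 ratios tested).

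C5 and C6 of the same pathway showed another pattern. C5 (ENSG00000106804, chr9:120932987-121075195), the precursor of the anaphylatoxin C5a and of C5b, had 188, 262 and 146 CPM in controls and 69.9, 92.4 and 149 CPM in sedanolide libraries. The groups overlapped, because sedanolide 3 lay slightly above control 3. On the log2 scale C5 differed by -0.94 (SE 0.321, adjusted p = 0.313), and by -0.72 with the side as a term, where it passed both thresholds (adjusted p = 0.0366). Exons of C5 share 408 bases with CNTRL on the opposite strand, whose counts were 12.9% of those of C5. C6, the next component to join, had 9 to 28 counts per library and a log2 fold change of -0.07 (SE 0.378).

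The promoter of C8B is shown because C8B was the called member, in 5′ to 3′ order from 250 bases before to 50 bases after the RefSeq start (GRCh38.p14, chr1:56965966-56966265, minus strand). This window lies inside the interval of C8B given above, whose 5′ end is at 56974383. No window at that end was searched. Motif letters were searched on both strands in all 35116 RefSeq promoters of this length, and 37 of the 46 members had an entry. None of the 5 motifs searched, which are named with fibrinogen below, was found in this window of C8B, which is therefore in lower case throughout. The same was true of C8A and F7.
C8B: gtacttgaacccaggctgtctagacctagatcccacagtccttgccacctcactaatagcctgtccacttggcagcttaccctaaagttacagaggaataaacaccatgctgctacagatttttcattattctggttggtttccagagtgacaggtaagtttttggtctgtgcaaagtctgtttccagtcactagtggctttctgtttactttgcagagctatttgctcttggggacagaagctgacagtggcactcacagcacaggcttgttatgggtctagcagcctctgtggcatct

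**Figure D2:**
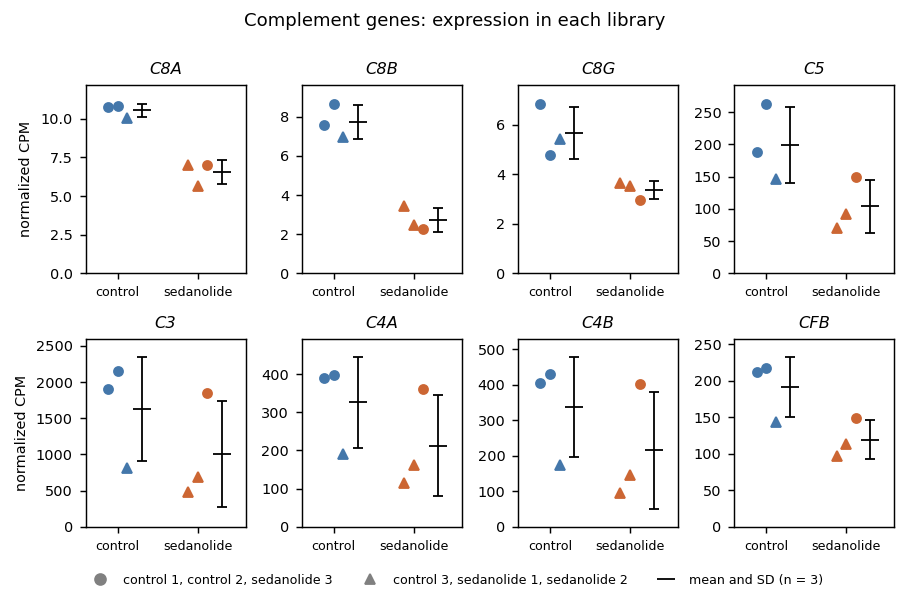
Normalized CPM of 8 complement genes in each library, with circles for control 1, control 2 and sedanolide 3, triangles for control 3, sedanolide 1 and sedanolide 2, and bars for the mean and SD (n = 3). The groups are apart for C8A, C8B and C8G, while for C3, C4A and C4B the triangles of both groups lie below all circles.

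C3 and C4, the abundant early components, varied mainly between the sides. C3 (ENSG00000125730, chr19:6677704-6730562), on which all pathways converge, had 1908, 2156 and 809 CPM in controls and 488, 695 and 1843 CPM in sedanolide libraries. The 3 libraries of side B were all below the 3 of side A, whatever the treatment, with a difference of -1.49 on the log2 scale. The log2 fold change of C3 was -0.69 (SE 0.553, adjusted p = 0.667), and -0.30 with the side as a term (adjusted p = 0.310). Within side A sedanolide differed from control by -0.14, and within side B by -0.47. C3 was the third most abundant member per length, at 1009 ± 527 TPM in controls and 609 ± 560.5 TPM in sedanolide libraries, where TPM also account for transcript length. The other member of the alternative pathway, CFB (ENSG00000243649), encodes the protease of its C3 convertase and had 211, 218 and 144 CPM in controls and 96.3, 113 and 149 CPM in sedanolide libraries. Its groups overlapped only between control 3 and sedanolide 3 (log2 fold change -0.68, SE 0.223, adjusted p = 0.296). With the side as a term CFB had an adjusted p of 0.0259 but a log2 fold change of -0.49, which is under 1.5-fold.

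C4 of the classical and lectin pathways is encoded by 2 near-identical genes, whose reads are hard to assign. The coding sequences of C4A (chr6:31982057-32002681) and C4B (chr6:32014795-32035418) have 5232 bases each and differed at 13 of them in the reference (99.8% identity). Of these differences, 5 lie close together in 1 exon and change the isotype of the protein, which for C4A favors binding to amino groups and for C4B to hydroxyl groups. The stretch is shown because only reads over such bases tell the genes apart. It covers bases 3353 to 3382 of the coding sequence, at chr6:31996077-31996106 for C4A and chr6:32028815-32028844 for C4B (GRCh38, plus strand), and capitals mark the bases that differ.
C4A: aggaccCctGtccagtgTtaGaCaggagca
C4B: aggaccTctCtccagtgAtaCaTaggagca

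The expected counts split reads between the C4 genes by estimate, so their separate values are uncertain. C4A (ENSG00000244731) had 389, 398 and 189.6 CPM in controls and 114, 162 and 362 CPM in sedanolide libraries, and C4B (ENSG00000224389) had 406, 429.8 and 175 CPM and 96.0, 147 and 404 CPM. Sedanolide 3 resembled controls 1 and 2 in both genes, and control 3 was closer to sedanolide 1 and 2. With the side included, C4A had -0.29 (adjusted p = 0.303) and C4B -0.28 (adjusted p = 0.392). Without it, their log2 fold changes were -0.62 (SE 0.465, adjusted p = 0.647) and -0.64 (SE 0.565, adjusted p = 0.691). The sum of both, which does not depend on the split, was 662.7 ± 258.5 CPM in controls and 428.4 ± 296.5 CPM in sedanolide libraries. It had a log2 fold change of -0.63 (SE 0.515, adjusted p = 0.671), and of -0.29 with the side as a term (SE 0.153, adjusted p = 0.352).

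The proteases and recognition molecules upstream of C4 had fewer counts. MASP2 (ENSG00000009724), the lectin pathway protease that cleaves C4 and C2, had 22.8, 18.8 and 17.7 CPM in controls and 13.3, 10.7 and 15.3 CPM in sedanolide libraries, which did not overlap (log2 fold change -0.59, SE 0.178, adjusted p = 0.255; -0.50 with the side included, adjusted p = 0.0790). Its exons share 173 bases with TARDBP on the opposite strand, a gene with 1109% of its counts, so reads of TARDBP could enter its value if the counting ignored strand. MBL2, the mannose-binding lectin, had 8 to 16 counts per library, did not overlap between groups in CPM and had a log2 fold change of -0.39 (SE 0.284). C1R and C1S, the proteases of C1, had log2 fold changes of -0.08 (SE 0.216) and 0.20 (SE 0.210), with overlapping libraries, and MASP1 had 4 to 9 counts per library. C1R shares 672 exonic bases with C1RL on the same strand, which had 1171% of its counts. Over the 6 tested genes of these pathways, 5 were below 0 (49.3% of all genes tested) and the median was -0.49. MASP2 and MBL2 were the 2 that were lower without overlap (9.65% of all genes tested). For MBL2 the margin was narrow, with 0.545 CPM in control 1 (9 counts) and 0.515 CPM in sedanolide 3 (13 counts).

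The 7 regulators of complement among the members had log2 fold changes between -0.42 for CFI and 0.39 for CD55. CFI, the protease that inactivates C3b and C4b, had 198 ± 22.9 CPM in controls and 148 ± 17.5 CPM in sedanolide libraries (log2 fold change -0.42, SE 0.143, adjusted p = 0.315). C4BPB, the β chain of the C4b-binding protein, had 31.1 ± 0.644 and 25.8 ± 0.602 CPM (-0.27, SE 0.103, adjusted p = 0.365). Neither overlapped between groups. CLU (ENSG00000120885), or clusterin, which blocks insertion of the attack complex, was the most abundant soluble regulator per length (359 ± 76.8 TPM in controls, 253 ± 72.7 TPM in sedanolide libraries). CLU had 194, 175 and 153 CPM in controls and 128, 138 and 160.4 CPM in sedanolide libraries, with overlap between control 3 and sedanolide 3 (log2 fold change -0.29, SE 0.144, adjusted p = 0.477). With the side included it had -0.20 (adjusted p = 0.257). SERPING1, the inhibitor of C1, had 5 to 29 counts per library (0.13, SE 0.520).

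The membrane regulators did not share a direction. CD55, the decay-accelerating factor of C3 convertases, had 18.4, 21.1 and 20.2 CPM in controls and 27.6, 22.0 and 28.9 CPM in sedanolide libraries, all of them above the controls (log2 fold change 0.39, SE 0.144, adjusted p = 0.348). CD59 (ENSG00000085063), which stops the attack complex after C8, was the most abundant of the 3 per length (82.6 ± 5.83 TPM in controls, 68.6 ± 16.4 TPM in sedanolide libraries). It had 75.4, 74.1 and 64.2 CPM in controls and 53.2, 53.9 and 71.7 CPM in sedanolide libraries, with overlap (-0.26, SE 0.154, adjusted p = 0.565). The fit with the side gave -0.16 for CD59 (adjusted p = 0.383) and 0.42 for CD55 (adjusted p = 0.112). CD46, the cofactor for cleavage of C3b, also overlapped (-0.14, SE 0.285, adjusted p = 0.880).

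Fibrinogen was the most abundant product among the members. Per length, FGB and FGG were first and second of the 34 members in the TPM table and FGA the fourth. FGB had 2529.9 ± 322 TPM in controls and 1728 ± 55.5 TPM in sedanolide libraries, FGG had 1611 ± 136 and 1232 ± 37.7 TPM, and FGA had 619 ± 93.9 and 347 ± 41.1 TPM. The genes are neighbors on chromosome 4, with FGB at chr4:154563011-154572807 on the plus strand, FGA at chr4:154583126-154590742 and FGG at chr4:154604134-154612967 on the minus strand. They encode the β, α and γ chains that form the fibrinogen hexamer.

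All 3 chains were lower in every sedanolide library than in any control library, which was true of 9.65% of all genes tested. The largest estimate was for FGA. FGA (ENSG00000171560) had 889.8, 968 and 822 CPM in controls and 516, 539 and 559.8 CPM in sedanolide libraries. The log2 fold change of FGA was -0.73 (SE 0.115), and its adjusted p of 0.0502 was just above the threshold. FGA passed both thresholds with the side as a term (-0.69, adjusted p = 0.00385) and in DESeq2 (adjusted p = 5.93e-07), and without any 1 library the adjusted p lay between 0.0590 and 0.360. FGB (ENSG00000171564) had 1250.3, 1485 and 1397 CPM in controls and 1065, 1047 and 908 CPM in sedanolide libraries (log2 fold change -0.45, SE 0.127, adjusted p = 0.226). FGG (ENSG00000171557) had 1580.1, 1671 and 1712 CPM in controls and 1423, 1410.3 and 1233 CPM in sedanolide libraries (-0.29, SE 0.117, adjusted p = 0.393). Neither FGB nor FGG reached 1.5-fold. With the side included, FGB had -0.50 (adjusted p = 0.0351) and FGG -0.34 (adjusted p = 0.0826), and in DESeq2 FGB had an adjusted p of 0.0248.

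Ratios between the chains were compared within libraries. Their level depends on transcript length, and the part of length in their difference between groups was not tested. The log2 ratio of FGA to FGG counts within a library was -0.89 ± 0.146 in controls and -1.33 ± 0.170 in sedanolide libraries, without overlap (difference -0.44, exact two-sided permutation test, p = 0.1, adjusted p = 0.167 over 5 ratios). The ratio of FGB to FGG differed by -0.16, also without overlap, with an exact permutation p of 0.1. The ratio of FGA to FGB differed by -0.28 and overlapped (exact permutation p = 0.2). As 0.1 is the smallest value that these exact tests allow, none could pass the threshold.

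The fibrinogen promoters are shown because the 3 genes were lower together, and capitals mark motif matches. The motifs searched were the HNF1 half-palindrome (in 0.322% of all promoters), C/EBP (TTGCNNAA, 10.5%), the type II interleukin-6 response element (CTGGGAA, 10.8%), an HNF4 core (CAAAGTCCA, 0.384%) and the antioxidant response element core (TGACNNNGC, 13.3%). FGA held an HNF1 match starting 56 bases and a C/EBP match starting 141 bases before its RefSeq start. FGB held an interleukin-6 element match at 112 bases and a C/EBP match at 101 bases before the first of its starts, and FGG held an interleukin-6 element match at 161 bases and an antioxidant element match across its start. A match of letters is a description of the reference and not a site of binding. The windows are chr4:154590693-154590992 (minus strand) for FGA, chr4:154562730-154563029 (plus strand) for FGB and chr4:154612607-154612906 (minus strand) for FGG, in GRCh38.p14.
FGA: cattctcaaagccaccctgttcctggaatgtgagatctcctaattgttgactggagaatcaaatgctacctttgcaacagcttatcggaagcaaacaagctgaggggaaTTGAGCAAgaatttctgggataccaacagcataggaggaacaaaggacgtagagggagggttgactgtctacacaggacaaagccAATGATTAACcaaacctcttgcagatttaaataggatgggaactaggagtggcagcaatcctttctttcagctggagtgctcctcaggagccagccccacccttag
FGB: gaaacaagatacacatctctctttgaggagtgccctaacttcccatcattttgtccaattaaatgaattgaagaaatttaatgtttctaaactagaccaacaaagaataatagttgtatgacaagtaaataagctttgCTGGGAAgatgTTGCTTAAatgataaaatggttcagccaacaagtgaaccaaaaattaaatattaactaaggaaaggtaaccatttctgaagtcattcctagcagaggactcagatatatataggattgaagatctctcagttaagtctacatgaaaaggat
FGG: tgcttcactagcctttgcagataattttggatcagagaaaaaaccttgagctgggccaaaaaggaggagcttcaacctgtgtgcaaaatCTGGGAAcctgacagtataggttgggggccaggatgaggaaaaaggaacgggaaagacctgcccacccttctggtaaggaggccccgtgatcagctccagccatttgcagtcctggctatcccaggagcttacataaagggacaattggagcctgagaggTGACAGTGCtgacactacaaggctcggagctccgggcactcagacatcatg

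Over the 37 members with a promoter entry, HNF1 letters were found for 4 genes (C5, F13B, FGA and PLG), C/EBP letters for 10, interleukin-6 element letters for 7, HNF4 letters for 2 (F10 and PROZ) and antioxidant element letters for 5. Counted by promoter, in the same order, these letters were in 5, 13, 10, 2 and 5 of 50. Of all promoters, 0.322%, 10.5%, 10.8%, 0.384% and 13.3% held them. Members with antioxidant element letters, F10, FGG, MBL2, PROC and SERPIND1, had log2 fold changes from -0.71 for F10 to -0.13 for PROC. Tested members with HNF1 letters ranged from -1.37 for F13B to -0.73 for FGA, and those with C/EBP letters from -0.73 for FGA to -0.07 for C6. Those with interleukin-6 element letters ranged from -0.71 for F10 to -0.27 for C4BPB. Of all 41 tested members 35 were fitted below 0, and the part of any motif in these values was not tested.

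F13B (ENSG00000143278), the carrier subunit of the factor XIII that crosslinks fibrin, had few counts. It had 14, 34 and 18 counts in controls and 1, 14 and 16 counts in sedanolide libraries, or 0.848, 1.44 and 1.02 CPM against 0.0538, 0.541 and 0.634 CPM. The log2 fold change was -1.37 (SE 0.587, adjusted p = 0.425) and -1.21 with the side included (adjusted p = 0.240), and the 1 count of sedanolide 1 is within the limit that a count of 0 allows.

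**Figure D3:**
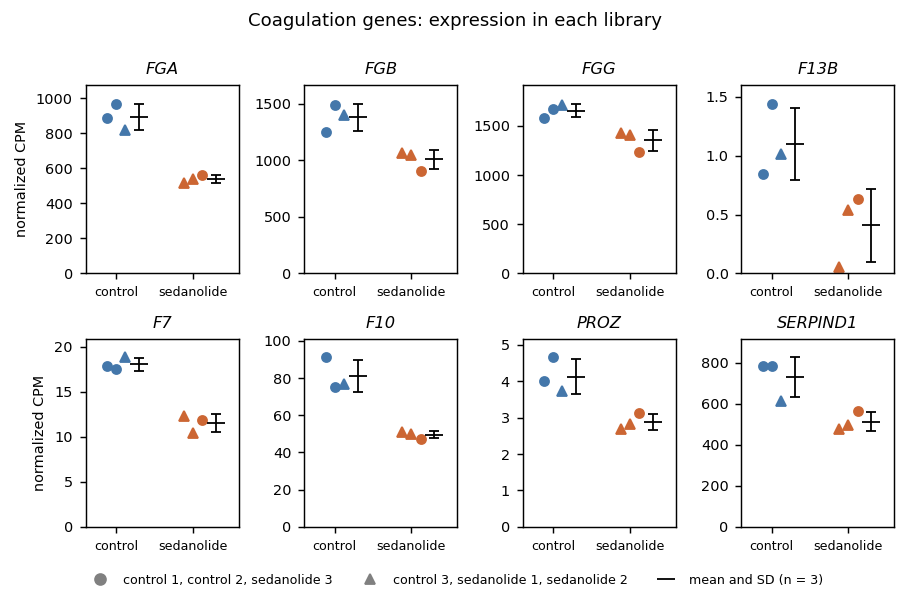
Normalized CPM of FGA, FGB, FGG, F13B, F7, F10, PROZ and SERPIND1 in each library, with symbols and bars as in the plot of complement levels (mean and SD, n = 3). These 8 genes were taken from the 9 of 21 tested coagulation members whose sedanolide libraries all lie below the controls (9.65% of all genes tested do), with sedanolide means of 538 CPM for FGA and 49.6 CPM for F10 against control means of 893 and 81.0 CPM.

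Factors VII and X, the vitamin K-dependent proteases of the initiation pathway, were lower in every sedanolide library. Their genes lie side by side on chromosome 13, followed by PROZ, at chr13:113105788-113120685 for F7, chr13:113122799-113149529 for F10 and chr13:113158648-113172386 for PROZ, all on the plus strand. F10 (ENSG00000126218) had 91.1, 75.4 and 76.6 CPM in controls and 51.2, 50.2 and 47.5 CPM in sedanolide libraries, with a log2 fold change of -0.71 (SE 0.121, adjusted p = 0.0638). Its exons share 98 bases with an antisense RNA whose counts were 8.93% of those of F10. F7 (ENSG00000057593) had 17.8, 17.5 and 18.8 CPM in controls and 12.3, 10.4 and 11.9 CPM in sedanolide libraries (-0.65, SE 0.124, adjusted p = 0.0871). Neither was called, though both passed the thresholds with the side as a term (F10 -0.70, adjusted p = 0.00943; F7 -0.65, adjusted p = 0.0170) and in DESeq2 (adjusted p = 1.77e-05 and 0.00145). Both genes differed between the sides by little, -0.01 for F10 and 0.01 for F7 on the log2 scale. The ratio of F10 to F7 within a library differed by -0.05 on the log2 scale between groups (exact two-sided permutation test, p = 0.6).

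The promoter of F10 is shown because it held matches of 3 motifs (GRCh38.p14, chr13:113122549-113122848, plus strand). On the opposite strand to the one printed, an interleukin-6 element match starts 107 bases and an antioxidant element match 101 bases before the RefSeq start, and these share 1 base in the first run of capitals. The second run is an HNF4 match across the start.
F10: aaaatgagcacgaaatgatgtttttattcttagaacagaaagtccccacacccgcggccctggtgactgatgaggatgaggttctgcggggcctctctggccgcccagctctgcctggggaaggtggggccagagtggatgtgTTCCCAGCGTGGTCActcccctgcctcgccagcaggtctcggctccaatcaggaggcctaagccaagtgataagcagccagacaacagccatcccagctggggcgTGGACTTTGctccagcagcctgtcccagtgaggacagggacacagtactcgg

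The remaining vitamin K-dependent members ranged from -0.52 to -0.13 on the log2 scale. PROZ, the cofactor for inhibition of factor Xa, had 4.13 ± 0.478 CPM in controls and 2.88 ± 0.228 CPM in sedanolide libraries, without overlap (SE 0.170, adjusted p = 0.292). F2 (ENSG00000180210), or prothrombin, was the most abundant of this group per length (190.4 ± 35.1 TPM in controls, 148 ± 29.7 TPM in sedanolide libraries). It had 260.1, 241 and 198 CPM in controls and 179, 188 and 221 CPM in sedanolide libraries, which overlapped (-0.25, SE 0.148, adjusted p = 0.561), and its value with the side included was -0.15 (adjusted p = 0.399). PROS1, or protein S, had 160.0 ± 46.6 and 118 ± 39.7 CPM (-0.44, SE 0.294, adjusted p = 0.604). PROC, or protein C, had 80.1 ± 6.02 and 73.1 ± 3.03 CPM (SE 0.112, adjusted p = 0.684), and both overlapped. F9, the factor lacking in hemophilia B, gave 0 counts in each of the 6 libraries, which allows 0.116 to 0.182 CPM.

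Tissue factor, factor V and their inhibitor overlapped between groups and differed between the sides. F5 (ENSG00000198734), the cofactor of factor Xa, had 99.1, 128 and 70.1 CPM in controls and 45.0, 58.4 and 91.5 CPM in sedanolide libraries (log2 fold change -0.61, SE 0.310, adjusted p = 0.494). TFPI (ENSG00000003436), the inhibitor of tissue factor with factor VIIa, had 67.5, 93.3 and 53.6 CPM in controls and 37.9, 51.1 and 73.6 CPM in sedanolide libraries (-0.40, SE 0.289, adjusted p = 0.633). F3, tissue factor itself, had 2.54, 3.60 and 1.24 CPM in controls and 1.56, 2.43 and 5.43 CPM in sedanolide libraries (0.35, SE 0.530, adjusted p = 0.826). The differences of side B from side A were -0.76, -0.65 and -1.37 for F5, TFPI and F3 on the log2 scale. The fit with the side moved F3 to 0.77 (SE 0.238, adjusted p = 0.114), with 0.84 within side A and 0.64 within side B, whereas without sedanolide 3 its estimate was below 0. The same fit gave -0.38 for F5 (SE 0.137, adjusted p = 0.172) and -0.20 for TFPI (SE 0.155, adjusted p = 0.550), so that none of the 3 passed the test.

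The contact system was sparsely expressed. F11 (ENSG00000088926), which activates factor IX, had 6.54, 9.66 and 6.78 CPM in controls and 4.35, 4.63 and 7.41 CPM in sedanolide libraries, with overlap (log2 fold change -0.49, SE 0.262, adjusted p = 0.517; -0.35 with the side included, adjusted p = 0.350). KNG1, whose products include the high-molecular-weight kininogen that carries prekallikrein and factor XI, was counted as 1 gene. It had 5.00 ± 0.184 CPM in controls and 3.38 ± 0.790 CPM in sedanolide libraries, without overlap (-0.57, SE 0.202, adjusted p = 0.328). F12, which starts the contact pathway, had 18 to 51 counts per library (0.19, SE 0.361), shares 399 exonic bases with GRK6 on the opposite strand and overlapped between groups. KLKB1, prekallikrein, had 1 to 2 counts per library.

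The serpins that limit clotting and plasmin did not share a direction. SERPINC1, antithrombin, had 141, 120.0 and 127 CPM in controls and 146, 174 and 159 CPM in sedanolide libraries, all above the controls (log2 fold change 0.30, SE 0.126, adjusted p = 0.401). SERPIND1 (ENSG00000099937), heparin cofactor II, had 784, 785 and 616 CPM in controls and 477, 498 and 563 CPM in sedanolide libraries, all below them (-0.51, SE 0.142, adjusted p = 0.224). The inhibitors of thrombin in plasma thus had fitted values on both sides of 0, and neither passed both thresholds. SERPINF2 (ENSG00000167711), the plasmin inhibitor α2-antiplasmin, had 289, 285 and 167 CPM in controls and 103, 126 and 215 CPM in sedanolide libraries, overlapping through sedanolide 3 (-0.74, SE 0.324, adjusted p = 0.431). With the side included, the adjusted p was 0.0368 for SERPIND1 (-0.41), 0.0353 for SERPINF2 (-0.48) and 0.160 for SERPINC1 (0.31), each at a change under 1.5-fold. SERPINA5, the protein C inhibitor, overlapped (-0.10, SE 0.144, adjusted p = 0.815).

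Plasminogen and its modulators were the last group. PLG, plasminogen, had 3 to 12 counts per library, and HRG, the histidine-rich glycoprotein that binds it, had 0 to 7. CPB2 (ENSG00000080618), the fibrinolysis inhibitor that removes C-terminal lysines from fibrin, had 133, 139 and 154 CPM in controls and 145, 142 and 115 CPM in sedanolide libraries. These overlapped (log2 fold change -0.08, SE 0.136, adjusted p = 0.841; with the side as a term -0.17, adjusted p = 0.335).

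Within the sides of component 1, sedanolide was below control on both sides in 31 of the 41 tested members and above it on both in 5. Of all genes tested, 33.8% were lower within both sides and 36.6% were higher within both. With the side as a term, the median log2 fold change of the members was -0.30, against 0.0085 for all genes tested, and 33 members were fitted below 0, against 48.4% of all genes. C1R and CD46 turned to 0.03 and 0.06. In that fit 6 members passed both thresholds (C5, C8A, C8B, F7, F10 and FGA), all lower, which 1.62% of all genes tested did (1.06% were called higher and 2.69% in either direction). As the side was derived from the libraries tested, the p-values of that fit may be too small. CFB, FGB, SERPIND1 and SERPINF2 had an adjusted p under 0.05 there at a change under 1.5-fold. The share of all genes with such an adjusted p at a change under 1.5-fold was not counted. DESeq2 without the side called 5 (C8A, C8B, F7, F10 and FGA), all lower, where it called 1.4% of all genes lower, 0.915% higher and 2.31% in either direction. The members that were called in these fits are thus factors of the terminal complement pathway, the proteases next to each other on chromosome 13 and the α chain of fibrinogen.

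**Figure D4:**
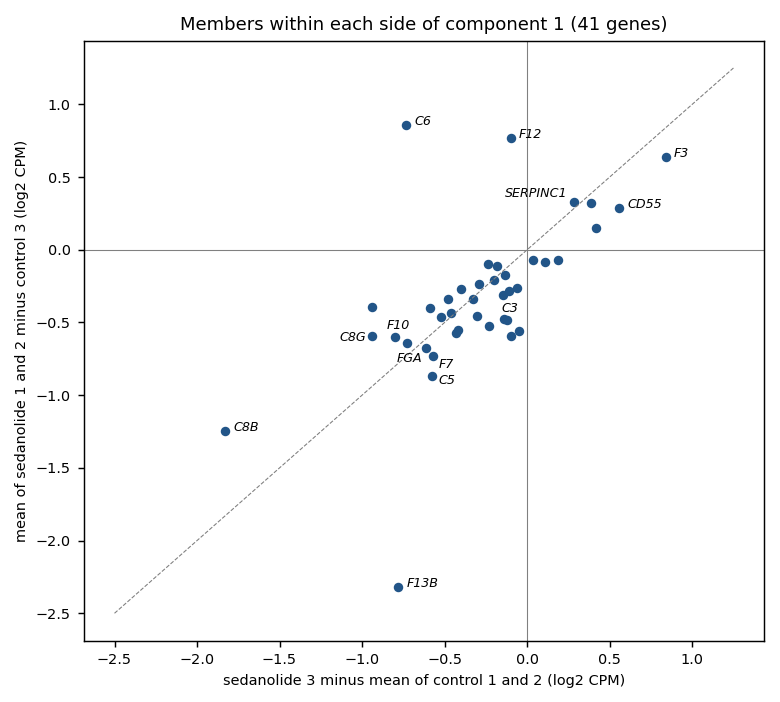
Difference between sedanolide and control in log2 CPM within each side of component 1 for the 41 tested members, with side A (sedanolide 3 against controls 1 and 2) on the horizontal axis and side B (sedanolide 1 and 2 against control 3) on the vertical axis. C8B lies at -1.83 and -1.25, 31 members lie below 0 on both axes, and the dashed line marks equal differences.

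The members also differed between the sides whatever the treatment. The median difference of side B from side A was -0.27 on the log2 scale over the 41 members, with a range from -1.51 to 0.25, while the median of all genes tested was 0.023. The largest differences were in C4B, C3, F3 and C4A, at -1.51, -1.49, -1.37 and -1.23. Members with a canonical transcript over 4000 bases (F5, CD59, C5, C4A, C4B, C3 and KNG1) had a median of -0.76, and the 34 shorter members -0.23. Over all genes the medians were -0.15 for 4847 longer genes and 0.11 for 9231 shorter genes. Spearman's correlation of transcript length with the side difference was -0.44 over the 41 members and -0.30 over 14078 genes, which share libraries and are no independent replicates. The part of transcript length or RNA quality in these differences was not tested.

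Other genes of the same pathways were examined in a list of 49 that are no members. Of these, 20 were tested and 17 had 0 counts in all libraries. Among the tested genes, 14 were fitted below 0 and 6 above, 5 were lower and 2 were higher without overlap (9.65% and 8.69% of all genes tested), the median log2 fold change was -0.22, and edgeR called 0, with 7 at an unadjusted p under 0.05 (11.9% of all genes). Those higher without overlap were receptors cleaved by clotting proteases, F2RL1 and F2R, named after their values were seen. F2RL1, or PAR2, had 12.7, 12.3 and 12.2 CPM in controls and 18.2, 18.7 and 18.04 CPM in sedanolide libraries (0.56, SE 0.110, adjusted p = 0.0975). Its adjusted p was 0.0212 with the side included and 0.00207 in DESeq2, at a change under 1.5-fold. F2R, the thrombin receptor, had 35.0, 34.2 and 32.9 CPM in controls and 39.9, 40.5 and 42.7 CPM in sedanolide libraries (0.27, SE 0.103, adjusted p = 0.364). FGL1, a fibrinogen-like hepatokine, had 86.4, 99.8 and 82.2 CPM in controls and 47.2, 51.7 and 67.5 CPM in sedanolide libraries (-0.69, SE 0.165, adjusted p = 0.168). FGL1 passed both thresholds with the side as a term (adjusted p = 0.0174) and in DESeq2 (adjusted p = 0.0224). CFD, the protease that activates factor B, had 3.51, 1.95 and 2.15 CPM and 1.67, 1.20 and 1.15 CPM (-0.92, SE 0.302, adjusted p = 0.294). PLAT, the tissue plasminogen activator, had 1.58, 1.06 and 0.961 CPM and 0.806, 0.695 and 0.634 CPM (-0.75, SE 0.293, adjusted p = 0.379). A2M, the protease trap α2-macroglobulin, was named after its values were seen and followed the sides like C3, with 3021, 3552 and 1465 CPM in controls and 878, 1229 and 3063 CPM in sedanolide libraries (-0.64, SE 0.512, adjusted p = 0.667).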

How the data were processed

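RNA-seq was performed on 3 control and 3 sedanolide-treated samples (100 μM, 24 h). According to the submitters' processing notes, reads were handled with FastQC, Trimmomatic, STAR and RSEM on GRCh38, with no versions given. The authors deposited RSEM expected counts per gene, not normalized, which were rounded here, and a second table of log2(TPM + 1) for a part of the genes, which holds 34 members. About 7.90% to 8.59% of the expected counts were not whole.

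Counts were analyzed in R 4.3.3 with edgeR 4.0.16 (filterByExpr, TMM, robust quasi-likelihood fit). SE is the log2 fold change divided by the root of the test's F. Alternatives were DESeq2 1.42.0, limma 3.58.1 on log2 TPM with a pseudocount of 1 or 0.1, other scaling and filters, the replicate number as a block, the side of component 1, and each library left out. The sum of C4A and C4B, and counts of members without overlap under other settings, were chosen after seeing the data. Single ratios, which were not among the planned tests, were compared with exact permutation tests (scipy 1.17.1). The edgeR procedure was also run on simulated counts with the same dispersion for all genes. These held no split of the libraries, so that run does not cover the split. Positions are from GENCODE 44 and promoters from RefSeq GRCh38.p14. The libraries are directional, but the strand setting of the counting is not given in the sources used here.

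Every library value was given for members past both thresholds in edgeR, DESeq2 or the fit with the side, those with a 1.5-fold change, and the most abundant member of each role. Other members, FGG, CD55, PROZ, F3, SERPINC1 among them, were given for their role. The members and lists were chosen with earlier results of these data known.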

Additional observations from a re-analysis of the deposited data

How the results depend on the processing

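The number of members past both thresholds, 1 in edgeR, was 5 with DESeq2, 3 with library size only, 6 with the side as a term, 0 with limma on log2 TPM with a pseudocount of 1 or 0.1 (17 of 34 at an unadjusted p under 0.05 with each, against 11.5% and 11.6% of all genes in the table), and 0 to 1 when a library was left out. C8B was called without sedanolide 3 only. Over all genes the count was 94 in edgeR, 326 with DESeq2, 109 with library size only and 157 for all genes with at least 1 count. It was 379 with the side as a term, 60 with limma and a pseudocount of 1 (67 with 0.1), and 0 to 135 without 1 library. It was 0 without control 1 and without sedanolide 2. For the other pathway genes it was 0 in edgeR, 1 with DESeq2, 1 with the side as a term and 0 to 1 without 1 library. For the acute phase list it was 0 in edgeR, 1 with DESeq2, 1 for all genes with at least 1 count and 2 with the side as a term. The cause of these differences was not tested.

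The median log2 fold change of the members stayed below 0 throughout, between -0.57 and -0.32 when a library was left out, -0.48 with library size only, and -0.53 and -0.59 in the TPM table. Over all genes the medians were -0.038 with library size only, and -0.074 and -0.079 in the TPM table. Members that were lower without overlap numbered 16 in edgeR normalization (9.65% of all genes), 17 with library size only and 14 of 34 in TPM. The share of all genes was not counted with library size only or in TPM. They numbered 26 without control 3 (16.3% of all genes) and 29 without sedanolide 3 (20% of all genes). Of the 41 tested members, 33 kept their direction in all 14 alternative fits in which they had a value, and 8 turned in at least 1 (C1R, C1S, C6, CD46, CPB2, F12, F3 and SERPING1), so that 33 to 37 were fitted lower. CPB2 turned to 0.017 without sedanolide 3 (adjusted p = 0.945), with a range from -0.15 to 0.017 over the libraries left out.

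Samples with the same replicate number did not deviate together (correlations -0.116, -0.262 and -0.675). They lay on opposite sides of component 1 for every number, so these correlations cannot decide whether the numbers pair samples. With the replicate block 0 members passed both thresholds, 10 had an unadjusted p under 0.05, and over all genes 0 passed, with 770 at an unadjusted p under 0.05 (5.46%). At this depth MASP1, KLKB1, PLG and HRG did not pass the filter and F9 had 0 counts, so that no difference was tested for them.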

Other observations

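Acute phase proteins and the interleukin-6 pathway, which governs fibrinogen and several complement genes in liver, were examined in a list of 21 genes, of which 16 were tested. Fitted log2 fold changes were below 0 for 10 and above 0 for 6, with a median of -0.15, and 4 genes were lower without overlap (9.65% of all genes tested). The edgeR test called 0 of them, with 3 at an unadjusted p under 0.05, all lower (6.57% of all genes), and DESeq2 called 1. ITIH3, a hyaluronan-binding inter-α-inhibitor heavy chain, had 11.8, 14.2 and 11.2 CPM in controls and 6.45, 6.72 and 6.94 CPM in sedanolide libraries (-0.89, SE 0.143, adjusted p = 0.0513). SOCS3, the feedback inhibitor of interleukin-6 signaling, had 7.21, 6.99 and 7.91 CPM and 5.00, 5.25 and 4.20 CPM (-0.61, SE 0.152, adjusted p = 0.177). CP, or ceruloplasmin, had 20.6, 28.0 and 16.9 CPM and 8.98, 9.50 and 20.6 CPM, which overlapped (-0.74, SE 0.356, adjusted p = 0.468). With the side as a term, ITIH3 and SOCS3 passed both thresholds (adjusted p = 0.00945 and 0.0254).

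Of the 6 hepatocyte markers, log2 fold changes ranged from -0.64 for AFP to 0.06 for APOA1, and 4 overlapped between groups. ALB, the main secreted protein of hepatocytes, had 1218, 1249 and 1039 CPM in controls and 803, 914 and 881 CPM in sedanolide libraries without overlap (-0.43, SE 0.125, adjusted p = 0.241). TTR, or transthyretin, had 39.3, 39.4 and 37.8 CPM and 29.8, 24.6 and 26.1 CPM, also without overlap (-0.53, SE 0.118, adjusted p = 0.133). PDGFRB, listed as a stellate cell marker and the only one of its list tested, had 21.7, 23.8 and 14.9 CPM and 5.16, 6.02 and 11.3 CPM (-1.42, SE 0.328, adjusted p = 0.155). It passed both thresholds with the side as a term (-1.19, adjusted p = 0.00208) and in DESeq2 (adjusted p = 0.00420). DCN of the same list had 0 counts in all libraries, and the 5 markers together had 15.1 to 24.0 CPM in controls and 5.48 to 11.4 CPM in sedanolide libraries.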
